A study of Mus musculus with 20 samples.

Results

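Expression of 9 listed surface genes was examined in cultured mouse ovarian surface epithelial (OSE) cells: Kdr, Esam, Thy1, Cd44, Cd24a, Nrp1, Nrp2, Eng and Ly6a. The list was selected with the levels of these genes in the clusters of these same cells known, so the levels in the clusters are given as a description, without a test. Of the 9 listed genes, 6 were among the 14299 genes of the count table (Kdr, Esam, Thy1, Nrp1, Nrp2 and Eng). Cd44, Cd24a and Ly6a were not analysed here. The ovarian surface epithelium is the mesothelial sheet around the ovary, and E2, estradiol, is the main estrogen of the ovary. Primary cultures spent 48 h in medium without hormones before 15 days of treatment, either 100 nM E2 in ethanol (0.0002% final) or the same ethanol alone. Cells of both treatments were loaded on the same Fluidigm C1 circuit, a microfluidic chip with separate capture sites, in which a column of sites yields a library. The 10 control libraries came from columns 1 to 10 and the 9 E2 libraries from the other columns, of which column 13 had no cells in the tables used. A treatment entered the chip as a single suspension, so treatment and suspension cannot be told apart, and p-values measure only the spread between libraries of 1 suspension.

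The authors divided the 589 cells into 2 clusters with SC3, a consensus k-means method, after imputation. Cluster 1, the group they named for its lack of response to E2, comprised 126 cells of control and 42 of E2, and the responsive cluster 203 and 218. Cells of the same library and cluster were pooled by adding their counts. Pools under 3 cells were dropped, leaving 10 control and 7 E2 sums of cluster 1 and 10 control and 9 E2 sums of responsive cells. A level is given in CPM, the count scaled to the TMM-normalized total of such a sum, and a level over all pooled cells of a group in RPM, scaled to their plain total. The median depth per cell was 143233 reads in responsive control cells, 117809 in responsive E2 cells, 112126 in control cells of cluster 1 and 87632 in E2 cells of cluster 1, and the median percent of mitochondrial reads was 2.08%, 2.43%, 2.53% and 3.55% in that order. A k-means labelling made here without imputation and without the listed genes gave 583 of 589 cells the same cluster.

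Kdr encodes VEGF receptor 2, the receptor tyrosine kinase through which VEGF-A acts on endothelial cells, and Nrp1 and Nrp2 encode neuropilins, co-receptors that bind VEGF family ligands and class 3 semaphorins. Esam encodes an immunoglobulin-like adhesion molecule of endothelial tight junctions, and Eng encodes endoglin, a co-receptor for ligands of the TGFB family. Thy1 (CD90) encodes a small glycoprotein held in the membrane by a GPI anchor, and is used with endoglin to recognise mesenchymal stromal cells. These genes are best known from blood vessels and connective tissue, and several are used as surface markers in cell sorting.

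On GRCm38, Kdr lies on chromosome 5 from 75932827 to 75978458 on the minus strand. Esam lies on chromosome 9 from 37528078 to 37538319 and Thy1 on the same chromosome from 44043384 to 44048579. Nrp1 lies on chromosome 8 from 128358604 to 128503363, Nrp2 on chromosome 1 from 62703285 to 62818695 and Eng on chromosome 2 from 32646595 to 32682669, all of these on the plus strand. Exons of Eng overlap an exon of Fpgs on the opposite strand. The 2 sequences below are shown because the level of Kdr separated the clusters in these data, whereas that of the co-receptor Nrp2 overlapped between them. They are the bases just upstream of the annotated gene (RefSeq, GRCm38.p6, strand of the gene, 5′ to 3′), for Kdr 247 bases at chr5:75978459-75978705 and for Nrp2 218 bases at chr1:62703067-62703284. Capitals mark GC boxes (GGGCGG or CCGCCC) and half-sites of the estrogen response element (GGTCA or TGACC), each searched on both strands.
Kdr: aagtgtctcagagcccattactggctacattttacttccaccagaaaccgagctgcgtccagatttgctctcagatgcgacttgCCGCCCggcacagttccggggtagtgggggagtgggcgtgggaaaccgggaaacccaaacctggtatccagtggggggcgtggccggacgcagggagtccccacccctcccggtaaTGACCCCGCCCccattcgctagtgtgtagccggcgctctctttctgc
Nrp2: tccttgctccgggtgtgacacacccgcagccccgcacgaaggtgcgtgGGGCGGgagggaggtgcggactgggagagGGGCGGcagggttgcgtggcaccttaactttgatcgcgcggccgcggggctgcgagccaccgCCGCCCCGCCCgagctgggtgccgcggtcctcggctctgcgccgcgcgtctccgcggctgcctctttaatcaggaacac
The Kdr window held 1 half-site and 2 GC boxes, the half-site lying directly beside a GC box, and the Nrp2 window held 4 GC boxes, of which 2 overlap by 1 base, and no half-site. A half-site was present in 34.5% and a GC box in 32.5% of all 27025 promoters in the same 247 bases, and in 31.5% and 28.2% in the same 218 bases. The full palindromic estrogen response element, the AP-1 motif (TGANTCA), the ETS motif (AGGAAG) and the E-box (CACGTG) were not found in either window. A match is a description of the letters in the window.

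The 6 genes fell into 3 patterns across the clusters. Kdr, Esam and Thy1 had lower levels in cluster 1 than in responsive cells of the same library, Nrp1 and Nrp2 were read in both clusters, and Eng was near the limit of detection throughout. In the 17 libraries with sums of both clusters, Kdr, Esam and Thy1 were each lower in cluster 1 in 17 of 17 libraries, which held for 2.18% of the 11398 genes in the fit of both clusters. This is the contrast the genes were selected on, and nothing is read from that share.

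Kdr reached 12.3, 39.0 and 89.3 CPM (lowest, median and highest library) in responsive control cells and 5.08, 44.2 and 114 CPM in responsive E2 cells. In control cells of cluster 1 its highest library had 2.61 CPM and 4 of 10 libraries had no read, and in E2 cells of cluster 1 it had 1 read in all, in 1 of 42 cells. No sum of cluster 1 reached the lowest responsive sum, and the mean level over the 17 libraries was 91.1 times as high in responsive cells. With all reads counted, 34.5% of responsive control cells (70 of 203) and 34.9% of responsive E2 cells (76 of 218, 95% exact binomial interval 28.6 to 41.6%) had a Kdr read, beside 7 of 126 control cells of cluster 1. Kdr was therefore read in a minority of responsive cells in either condition. Intervals of this kind cover counting error over pooled cells only and leave out the spread between libraries. Over the 9 responsive E2 libraries the Kdr share ran from 11.8 to 59.1%. The reads carry no molecular identifiers.

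Esam reached 41.9, 122 and 171 CPM in responsive control cells and 39.1, 58.9 and 185 CPM in responsive E2 cells. In cluster 1 its median was 1.25 CPM in control and 0 in E2, with highest libraries of 38.6 and 10.1 CPM. Responsive sums lay above cluster 1 sums in every library, by 24.2 times in the mean. Esam was read in 61.1% of responsive control cells, 49.1% of responsive E2 cells, 16.7% of control cells of cluster 1 and 9.52% of E2 cells of cluster 1.

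Thy1 had a median of 2.96 CPM in control cells of cluster 1, with 40.4 CPM in its highest library, and a median of 0 in E2 cells of cluster 1, where the highest library had 2.51 CPM. The mean level over the 17 libraries was 18.6 times as high in responsive cells. With all reads counted, 26 of 126 control cells of cluster 1 (20.6%) had a Thy1 read, a share close to the 42 of 218 responsive E2 cells (19.3%), and 2 of 42 E2 cells of cluster 1 had one. In cells with a read, the median was 1.00 read in control cells of cluster 1 and 9.50 reads in responsive E2 cells.

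Nrp1 reached 8.05, 22.8 and 78.7 CPM in responsive control cells and 0.733, 10.6 and 71.1 CPM in control cells of cluster 1. Nrp2 reached 92.8, 126 and 220 CPM in responsive control cells and 39.4, 127 and 239 CPM in control cells of cluster 1. The ranges of the clusters overlapped for both neuropilins, and the mean level over the 17 libraries was 1.38 times as high in responsive cells for Nrp1 and 1.20 times for Nrp2. Nrp1 was lower in cluster 1 in 12 of 17 libraries and Nrp2 in 11 of 17. The log2 difference between clusters, with condition as a covariate, was -0.47 ± 0.50 (SE) for Nrp1 and -0.39 ± 0.28 for Nrp2, beside -6.19 ± 0.54 for Kdr, -4.74 ± 0.52 for Esam and -4.36 ± 0.49 for Thy1. The value for Nrp1 depended on the fit, at -1.41 ± 0.64 with the library as a block and -1.57 ± 0.51 with limma-voom, while Nrp2 was at -0.52 ± 0.31 and -0.40 ± 0.27. Of the cells with a value above 0 for Nrp2, 46.5% had a value that was not a whole number, as arises when reads are divided between genes. That percentage was 58.8% for Eng (10 of 17 cells), 21.7% for Nrp1, 2.60% for Kdr, 0.391% for Esam and 0% for Thy1.

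Eng had 38 reads over 203 responsive control cells, 5 over 218 responsive E2 cells and 4 over the 168 cells of cluster 1. Its highest library was at 6.81 CPM, a responsive control library of column 6, where 1 cell held 18 of 22 reads. Eng passed the filter on low counts in no edgeR fit with a filter. Without the filter its log2 fold change with E2 in responsive cells was -2.41 ± 1.10 (SE, adjusted p = 0.479), so that no difference in Eng was detectable at this depth.

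**Figure D1:**
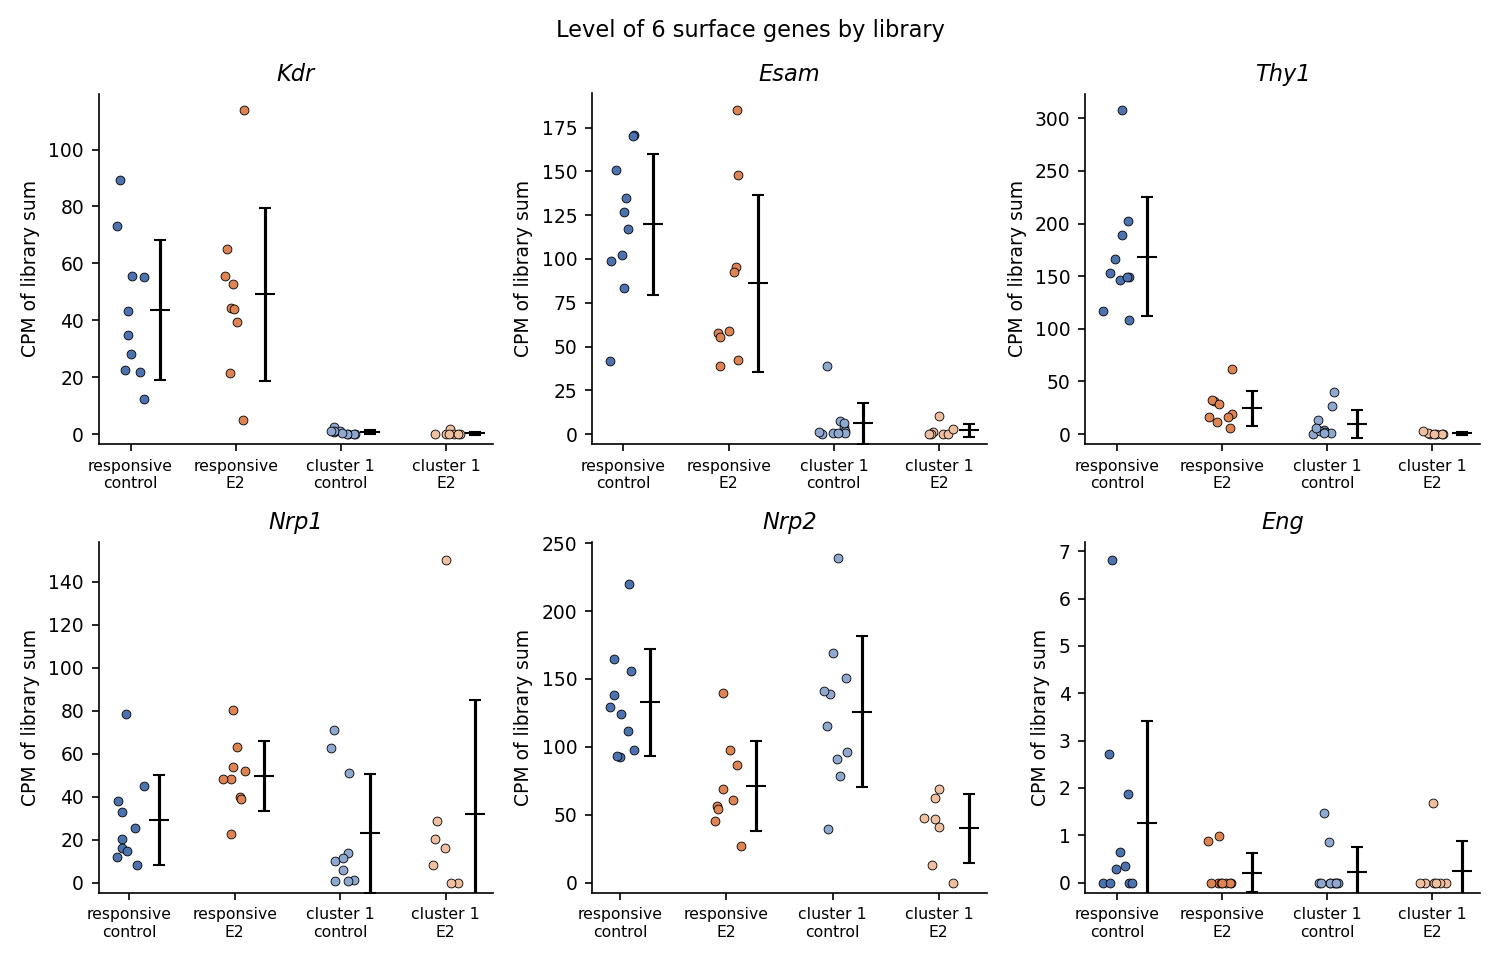
Level of Kdr, Esam, Thy1, Nrp1, Nrp2 and Eng in CPM (vertical axes, linear, 1 scale a gene) for each library sum in responsive and cluster 1 cells of control and E2. Points are libraries and bars are mean ± SD, cut at the lower edge of the axis; Thy1 in responsive cells lies at 108 to 308 CPM in control and at 5.58 to 61.9 CPM in E2, while Kdr overlaps between the conditions.

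The first tested comparison asked whether E2 changed these genes within responsive cells. Thy1 fell and no other of the genes was called, where a call needed both an adjusted p below 0.05 in edgeR's quasi-likelihood test over all genes and a change of more than 0.5 on the log2 scale. Of the 6 genes, 5 were in the fit and 1 was called, and over all 10265 genes tested 1.37% were called (87 higher, 54 lower). Called lower in E2 were 0.526% of genes.

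Thy1 reached 108, 151 and 308 CPM in the 10 responsive control libraries and 5.58, 19.1 and 61.9 CPM in the 9 responsive E2 libraries. All 9 E2 libraries lay below all 10 control libraries, as for 0.146% of the genes tested, and libraries of control and E2 were apart in either direction for 0.419%. The mean was 169 ± 56.8 CPM (SD, n = 10) in control and 24.6 ± 16.7 CPM (SD, n = 9) in E2, 6.85 times as high in control. The log2 fold change was -2.78 ± 0.32 (SE), with an adjusted p of 2.38e-06 (edgeR). It ranged from -3.07 to -2.64 when each library was left out in turn, and Thy1 stayed called each time.

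The fall of Thy1 was in the share of cells as well as in the level. With 20000 reads drawn from every cell, so that depth was equal, 52.1% ± 6.92 (SD, n = 10) of responsive cells had a Thy1 read per control library and 11.7% ± 5.26 (SD, n = 9) per E2 library. Control libraries lay at 45.0 to 66.7% and E2 libraries at 5.88 to 24.0%, without overlap. The difference was -40.4 percentage points, with a p of 1.08e-05 by exact two-sided permutation of libraries, the smallest that the 92378 splits can give, and an adjusted p of 0.00622 over the 9772 genes read in at least 5% of responsive cells, of which 1.03% were called. Among cells that did have a Thy1 read at that depth, the median was 5.00 reads in control (105 cells) and 2.00 in E2 (26 cells). At full depth 62.6% of responsive control cells and 19.3% of responsive E2 cells had a read.

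Nrp2 reached 92.8, 126 and 220 CPM in responsive control libraries and 27.3, 61.1 and 140 CPM in responsive E2 libraries. Of the 9 E2 libraries, 7 lay below all control libraries, and the E2 library of column 15 lay above the control median. The log2 fold change was -0.91 ± 0.24 (SE) with an adjusted p of 0.0525 in edgeR, so that Nrp2 was not called. The adjusted p was 0.0170 with DESeq2, 0.0305 with limma-voom, 0.0464 with library totals in place of TMM and 0.00516 in edgeR without column 15 (log2 fold change -1.09). Its highest value over the alternatives was 0.254, in edgeR with every cell thinned to 20000 reads (log2 fold change -0.73). In the thinned shares, a mean of 57.7% of control cells (44.4 to 84.0% over libraries) and 36.3% of E2 cells (20.0 to 56.0%) had an Nrp2 read, with an exact permutation p of 0.00129 and an adjusted p of 0.0798. Without thinning, where control cells were deeper, the difference was -28.3 points with an adjusted p of 0.0118 by the same exact permutation.

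Nrp1 had a median of 22.8 CPM in control and 48.4 CPM in E2, and 8 of 9 E2 libraries lay above the control median while the ranges overlapped. Its log2 fold change was 0.76 with an adjusted p of 0.491 in edgeR. Esam had a log2 fold change of -0.48 (adjusted p = 0.634) and Kdr of 0.16 (adjusted p = 0.952) in the same test. The shares of cells with a read, thinned, were 48.7% and 34.5% for Esam (exact permutation p = 0.0425, adjusted p = 0.351), 23.8% and 24.3% for Kdr (adjusted p = 0.987) and 19.3% and 23.0% for Nrp1 (adjusted p = 0.765), control first. The libraries of the 2 conditions overlapped for all 3 genes. The SE of the log2 fold change was 0.40 for Kdr, 0.28 for Esam and 0.36 for Nrp1, and a missing call does not show that their levels were equal.

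**Figure D2:**
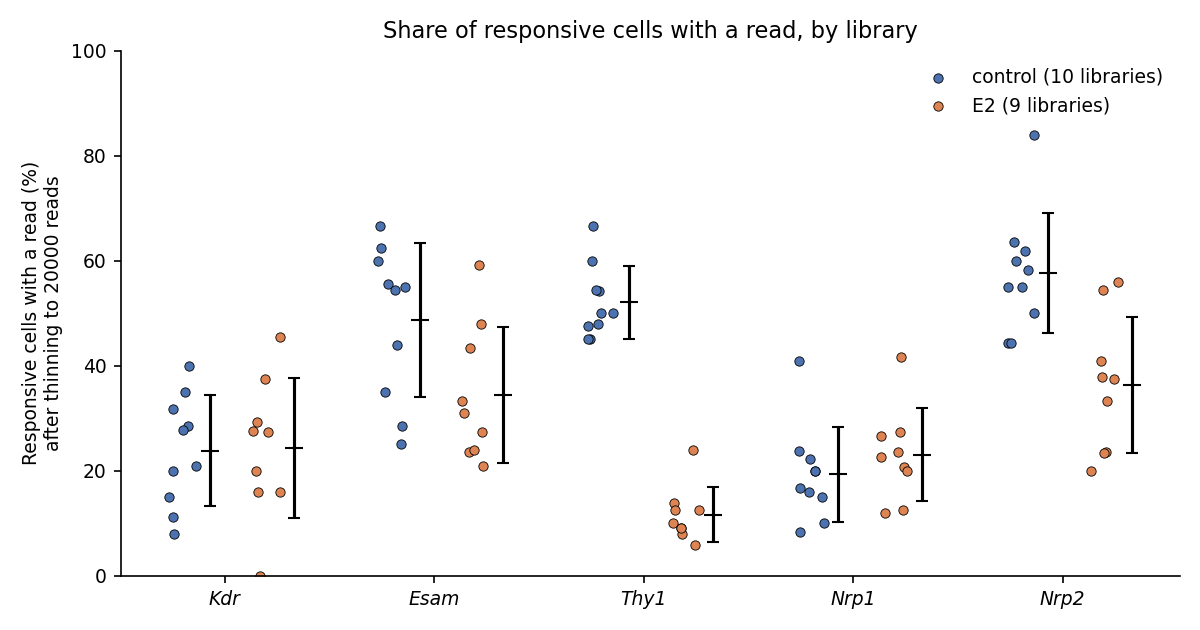
Percent of responsive cells with a read of each gene after thinning to 20000 reads per cell (vertical axis), by library, in control (10 libraries) and E2 (9 libraries), with mean ± SD beside the points. Thy1 is the gene whose libraries do not overlap, at 45.0 to 66.7% in control and 5.88 to 24.0% in E2, and Nrp2, which was not called, has means of 57.7% and 36.3% with overlapping libraries.

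Within cluster 1, neither of the members that could be fitted was called. Nrp2 had 126 ± 55.4 CPM (SD, n = 10) in control and 40.0 ± 25.2 CPM (SD, n = 7) in E2, and its log2 fold change of -1.62 ± 0.56 (SE) had an adjusted p of 0.429 in edgeR. Nrp1 had 22.8 ± 27.5 CPM (SD, n = 10) in control and 31.8 ± 53.0 CPM (SD, n = 7) in E2, with a log2 fold change of 0.54 that turned to -0.84 without the E2 library of column 16, which alone reached 150 CPM. Of 8340 genes tested, 0.0839% were called. Thy1, Kdr, Esam and Eng did not pass the filter there: Thy1 had 130 reads in 126 control cells and 2 reads in 42 E2 cells of cluster 1. The interaction of E2 and cluster asks whether the change with E2 differed between clusters. In edgeR, 0.184% of the 11398 genes tested were called for it. Nrp2 had -0.76 ± 0.55 (SE, adjusted p = 0.678), and a missing call does not show that its change was alike. Nrp1 had -0.28 ± 1.01 (SE, adjusted p = 0.970), which decides nothing, given that SE and the weight of column 16 in cluster 1. Kdr, Esam and Thy1 entered that fit through their reads in responsive cells, had few reads in cluster 1 and SEs of 1.24, 1.05 and 1.18, and their interaction says nothing about whether E2 acted alike in both clusters.

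Most of the Thy1 and Esam reads of cluster 1 came from 5 cells. The k-means labelling without the listed genes placed 5 control cells of cluster 1, from 4 libraries, with the responsive cells, and these 5 cells held 94 of the 130 Thy1 reads (72.3%) and 37 of the 61 Esam reads (60.7%) of all 126 control cells. They held 67 of the 1861 Nrp2 reads (3.60%), 2 of the 339 Nrp1 reads and 1 of the 10 Kdr reads. Without them, Thy1 in control cells of cluster 1 went from 8.93 to 2.62 RPM and Esam from 4.19 to 1.75, while Nrp2 went from 128 to 130 RPM. The same 5 cells held 203 of 291 reads (69.8%) of the epithelial keratin Krt19, 95 of 112 (84.8%) of Icam2 and 42 of 42 of Flt4, genes that the labelling did use. The other labelling moved the log2 difference between clusters from -4.36 to -5.81 for Thy1 and from -4.74 to -5.74 for Esam, and left Kdr at -6.23.

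The genes read in responsive cells were next compared cell by cell. With each cell thinned to 20000 reads, the number of cells with reads of both genes of a pair was set beside the number that the shares of each gene within each library would give. Over the 421 responsive cells, the observed number was 0.714 to 1.22 times the number from the shares in the 10 pairs of Kdr, Esam, Thy1, Nrp1 and Nrp2 (median 0.988). Kdr and Esam were read together in 38 cells (41.9 from the shares), Esam and Thy1 in 59 (60.4), and Nrp1 and Nrp2 in 47 (41.7). The lowest ratio was that of Kdr and Thy1, together in 22 cells where the shares give 30.8 (ratio 0.714, counting interval 0.451 to 1.07). All 10 intervals included 1 in control cells and in E2 cells. They cover the observed count alone and take no account of the fixed shares of both genes, so they are wide. They therefore cannot decide whether the genes of a pair were read independently.

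Co-detection was also counted with Icam2, an adhesion molecule whose level followed that of Esam most closely. Esam and Icam2 were read together in 43 of 203 responsive control cells (38.4 from the shares) and in 25 of 218 responsive E2 cells (24.1). In responsive E2 cells, 14 of the 26 cells with a Thy1 read also had Icam2, beside 8.35 from the shares (ratio 1.68, counting interval 0.928 to 2.75). These counts are from cells thinned to equal depth. At full depth, responsive control cells with a Thy1 read had a median depth of 155594 beside 122213 in cells without. In responsive E2 cells the medians were 140946 and 112283.

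**Figure D3:**
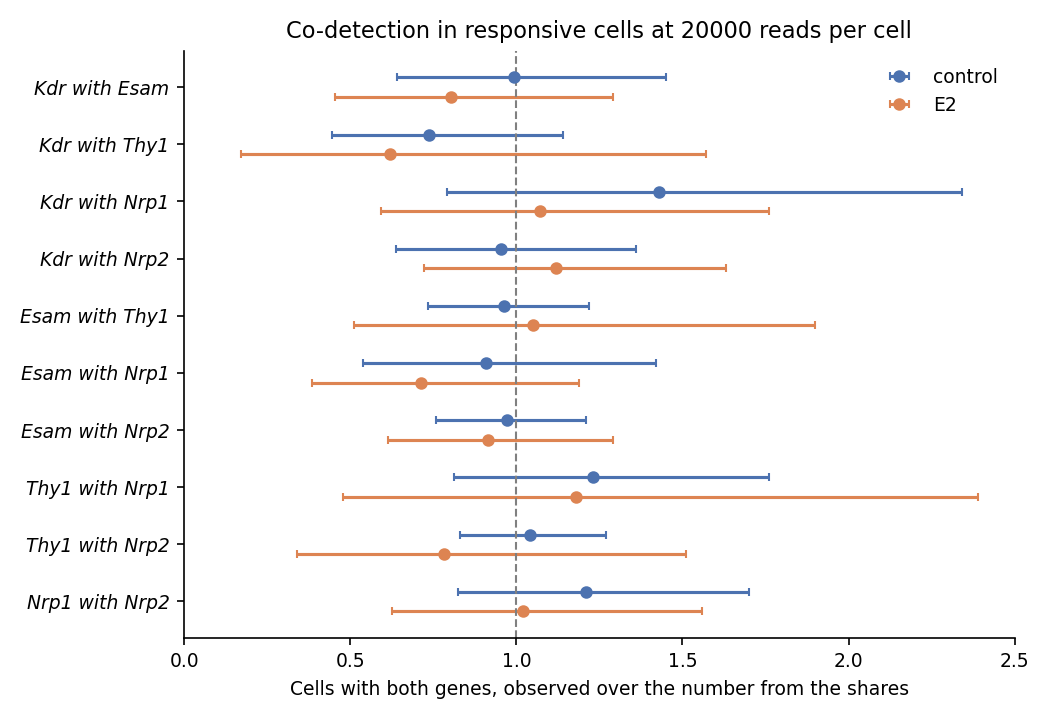
Cells with a read of both genes, observed over the number given by the shares within each library (horizontal axis), for 10 pairs in responsive control cells (203) and responsive E2 cells (218) at 20000 reads per cell. Bars are 95% exact binomial intervals of the observed count; every bar crosses 1, the dashed line.

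Per cell, responsive control cells carried the most of the 5 genes. The list was selected with the levels in the clusters known, so the difference between clusters is a description. At 20000 reads, the mean number of the 5 genes with a read was 2.01 in responsive control cells, 1.31 in responsive E2 cells, 0.778 in control cells of cluster 1 and 0.619 in E2 cells of cluster 1. None of the 5 was read in 11 of 203, 45 of 218, 49 of 126 and 22 of 42 cells in that order. Kdr, Esam and Thy1 were all read in 9 of 203 responsive control cells (4.43%) and in 0 of 218 responsive E2 cells, and at full depth in 27 (13.3%) and 5 (2.29%). No number from the shares was computed for these genes together, and the Thy1 share was itself lower in E2.

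**Figure D4:**
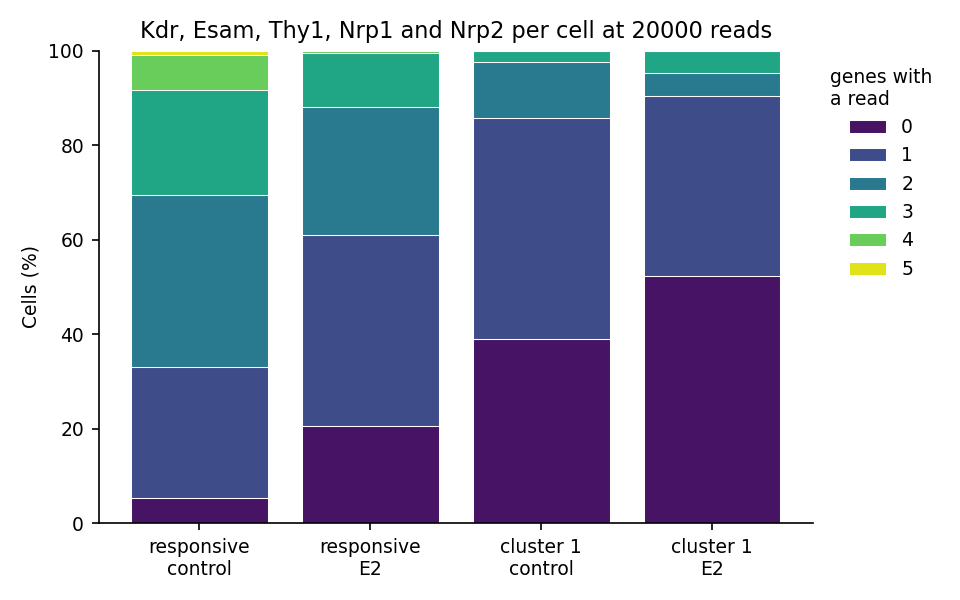
Percent of cells (vertical axis) with reads of 0 to 5 of Kdr, Esam, Thy1, Nrp1 and Nrp2 after thinning to 20000 reads, in the 4 groups of cells. Cells without any of the 5 genes are 5.42% of responsive control cells and 20.6% of responsive E2 cells.

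The authors ordered the cells along a trajectory with numbered states, and the genes differed in where along it they were read. These states were drawn from the expression of these same cells, so the values are a description. Among E2 cells, Thy1 had a read at 20000 reads in 9 of the 151 cells of state 5 (5.96%, interval 2.76 to 11.0%), in 10 of 43 cells of state 4 (23.3%, interval 11.8 to 38.6%) and in 6 of 21 cells of state 6 (28.6%). State 4 also held 21 control cells, of which 7 (33.3%) had a Thy1 read. Kdr had a read in 12 of those 21 control cells (57.1%, interval 34.0 to 78.2%) and 6 of 43 E2 cells of state 4. Control cells with a Kdr read were 29 of 143 in state 2 (20.3%) and 2 of 14 in state 7 (14.3%). E2 cells with a Kdr read were 41 of 151 in state 5 (27.2%) and 7 of 21 in state 6 (33.3%). In state 1, 7 of 148 control cells (4.73%) and 0 of 41 E2 cells had one. Nrp2 was read in 35.1 to 39.5% of E2 cells and in 52.0 to 71.4% of control cells over all states with at least 10 cells.

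The genes whose level followed that of a member most closely over the 36 sums were found by Pearson's r of log2 CPM. These sums mix clusters and conditions, share libraries and differ in depth, and r is given as a description. For Kdr they included Acot1 (r = 0.938), an acyl-CoA thioesterase, and Gpx7 (0.914), a peroxidase. For Esam they were Icam2 (0.962), Crip1 (0.933) and the mitochondrial creatine kinase Ckmt1 (0.926). For Thy1 they were the prostacyclin synthase Ptgis (0.927), Ckmt1 (0.917) and Pear1 (0.907). Ptgis and Pear1 fell with E2 in responsive cells in edgeR, with log2 fold changes of -0.83 ± 0.16 (SE, adjusted p = 0.00523) and -1.43 ± 0.27 (SE, adjusted p = 0.00238), whereas Acot1, Gpx7, Icam2, Crip1 and Ckmt1 were not called. The neuropilins had looser companions, Pxn (0.741), Fam189a2 (0.699) and Sytl1 (0.694) for Nrp1 and Smarcc2 (0.812), Qrich1 (0.798) and Ncaph2 (0.782) for Nrp2, none of them called.

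The name endothelial was checked against a list of 28 endothelial markers, of which 16 were in the table. Markers such as Cdh5, Tek and Cldn5 were not analysed here. Pecam1 (CD31) was the exception among the 16, with reads in all 589 cells and pooled levels of 539 and 489 RPM in responsive cells (control, E2) and 495 and 464 in cluster 1. Icam2 had 90.2 and 76.4 RPM in responsive cells and 7.70 and 0.534 in cluster 1, and Flt4, the VEGF-C receptor of lymphatic endothelium, had 26.8 and 11.1 in responsive cells. Tie1, Vwf, Mmrn2, Cd34, Flt1 and Fli1 were each below 5 RPM in every group. Flt1, Egfl7, Nos3 and Ramp2 had no read in the 42 E2 cells of cluster 1, which would allow up to 0.802 RPM if reads were independent. Robo4 went the other way, with none in responsive E2 cells, which would allow up to 0.116 RPM likewise. It passed the filter on low counts in the fit of cluster 1 but not in that of responsive cells. A cell with a read often held several reads of a gene, so reads were not independent and both limits are too low. The summed level of the 16 was 613 to 904 CPM over responsive control libraries and 547 to 830 CPM over responsive E2 libraries. Without Pecam1, set aside after its level was seen, the sum was 141 to 265 and 78.1 to 203 CPM in that order. The 12 OSE and mesothelial markers in the table, with no gene set aside, summed to 6129 to 7315 and 5424 to 6830 CPM in the same libraries. All 12 were at 10 CPM or more. Of the 16 endothelial markers, 5 were at 10 CPM or more in responsive control and 3 in responsive E2 cells. In cluster 1 these counts were 4 in control and 3 in E2 cells. The sum of the 16 was 381 to 724 CPM over control and 315 to 622 CPM over E2 libraries of cluster 1. Without Pecam1 it was 24.9 to 113 and 0 to 134 CPM in that order. The 8 stromal fibroblast markers in the table summed to 2451 to 3145 CPM in responsive control and 2360 to 5261 CPM in responsive E2 libraries. For the 5 granulosa and theca markers the sums were 47.8 to 121 and 46.7 to 159 CPM in that order. The 5 leukocyte markers summed to 49.3 to 140 and 31.0 to 122 CPM, and the 8 muscle and pericyte markers to 22.2 to 77.3 and 12.7 to 52.7 CPM. Their part in the levels of the members was not tested.

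**Figure D5:**
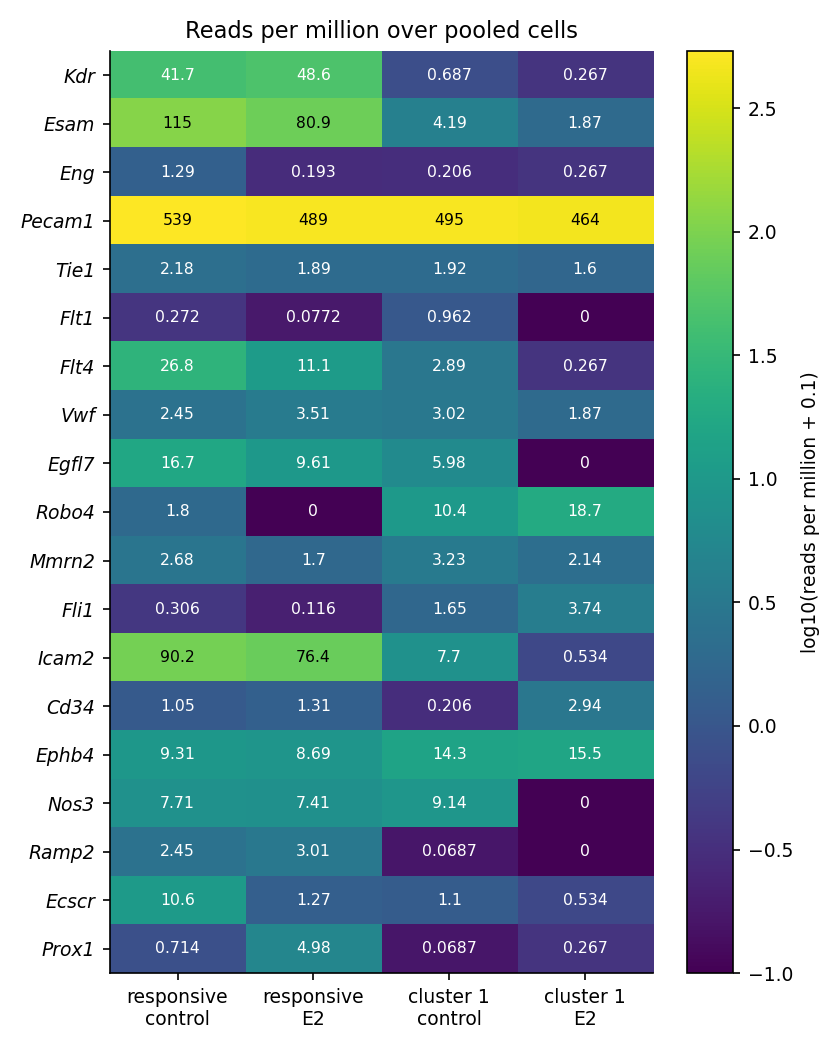
Levels in RPM over the pooled cells of each group (numbers in the cells; colour is log10 of the value plus 0.1) for Kdr, Esam, Eng and the 16 endothelial markers in the table. Pecam1 is at 464 to 539 in all 4 groups, Icam2 and Flt4 are higher in responsive cells, and most others are below 20. Robo4 has no read in responsive E2 cells.

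Around the VEGF receptors, 7 of the 8 genes of ligands and receptors in the table were in the responsive fit and none was called with E2. Their median log2 fold change was 0.01, and that of all genes 0.02. Vegfa, the main ligand of Kdr, had 52.3 CPM in control and 54.2 CPM in E2 (log2 fold change 0.04, adjusted p = 0.987). Vegfd, a ligand of Flt4, had 27.9 and 11.2 CPM (log2 fold change -1.31, adjusted p = 0.411). Among 21 genes fitted that act downstream of VEGF receptors, 2 rose and none fell, beside 1.37% of all genes called in either direction: Mapkapk2, a kinase activated by p38, rose from 220 to 410 CPM (log2 fold change 0.89, adjusted p = 1.26e-04) and the small GTPase Cdc42 rose from 236 to 448 CPM (0.91, adjusted p = 0.0125). Both proteins serve many receptors. The 12 fitted semaphorin and plexin genes had no call, with Sema3f, a ligand of Nrp2, at a log2 fold change of -1.22 (adjusted p = 0.0538). All p-values here are those of edgeR over all genes.

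Around Thy1, the list of mesenchymal stromal surface markers had 12 genes in the responsive fit, of which 2 fell and none rose, beside 0.526% of all genes called lower, with a median log2 fold change of -0.48 beside 0.02 over all genes. The genes that fell were Thy1 itself, around which the list was built, and Vcam1, the ligand of the integrin VLA-4. Vcam1 went from 30.6 ± 33.3 CPM (SD, n = 10) in control to 1.58 ± 2.60 CPM (SD, n = 9) in E2, with a log2 fold change of -4.24 ± 0.94 (SE) and an adjusted p of 0.0140 in edgeR. That call was lost with limma-voom (adjusted p = 0.136) and in edgeR without 1 control library, that of column 8 (adjusted p = 0.0504). In cluster 1, Vcam1 had 0.869, 66.5 and 98.8 CPM (lowest, median and highest library) in control and 0, 13.2 and 269 CPM in E2, where 1 library of 5 cells, that of column 20, gave the highest value. Of 11 fitted genes of Cd24a partners and GPI-anchored surface proteins, Thy1 fell and Cd55 rose. Cd55, a GPI-anchored inhibitor of complement, had 361 ± 67.5 CPM (SD, n = 10) in responsive control and 913 ± 351 CPM (SD, n = 9) in responsive E2 cells, with a log2 fold change of 1.33 ± 0.17 (SE) and an adjusted p of 9.92e-06. GPI-anchored genes thus moved in both directions.

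None of the other lists had more than 1 call in responsive cells. Of the 12 fitted OSE and mesothelial markers, Krt19 rose from 407 ± 80.6 CPM (SD, n = 10) to 626 ± 87.3 CPM (SD, n = 9; log2 fold change 0.62, adjusted p = 0.00973, edgeR). No gene was called among 14 fitted partners of endoglin, 12 partners of Cd44 and hyaluronan, 6 members of the Ly6 and uPAR family, 12 junctional adhesion proteins with Esam, 6 endothelial, 8 stromal fibroblast, 3 granulosa and theca, 2 leukocyte and 2 muscle and pericyte markers. F11r, a junctional adhesion molecule, had a log2 fold change of 0.47 with an adjusted p of 0.0347 in edgeR, below the fold required for a call. In cluster 1 and in the interaction no gene of any list was called in edgeR.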

How the data were processed

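Quantification by the authors used kallisto 0.44.0 (submitters' processing notes) and tximport, followed by quality filters in scater. The estimated counts the authors deposited are per gene, not normalized, and 66.9% of those above 0 are whole. The deposited metadata held cluster, trajectory state and the percent of mitochondrial reads. The imputed values the authors deposited were not used here. Estimated counts were rounded, a read meaning a rounded count of at least 1. Annotation was GENCODE M21, GRCm38, with a symbol for 14135 of 14299 genes, and Cd44, Cd24a and Ly6a were looked up by Ensembl identifier too.

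Sums were fitted with edgeR 4.0.16 in R 4.3.3 (TMM, filterByExpr, quasi-likelihood test, Benjamini-Hochberg adjustment over all genes fitted). An SE is the size of the log2 fold change over the square root of its F statistic. Library means of shares were tested by an exact permutation test, two-sided. DESeq2 1.42.0, limma-voom 3.58.1, other filters, depths and labels and each library left out served as alternatives, and the tests were run on simulated data first. No doublet caller was run. The 40 row barcodes are reused in every column by design, and no cell name occurred in more than 1 library. Total reads per library were 3867791 to 5078340 in control and 2693258 to 4037847 in E2, over 26 to 36 cells.

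The members and gene lists were chosen with earlier results of these data known. Genes named are the members, the 3 genes with the highest r for each member, and up to 4 called genes of each list. A gene that this rule names for Kdr is not reported here. Other genes were named after their values were seen.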

Additional observations from a re-analysis of the deposited data

Results flagged for a closer look

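In 24 groups of 7 to 10 libraries, the level of a member in 1 library stood apart from the rest of its group in 10 cases, where chance gives about 1 group in 20. Each was the highest library of its group. In responsive cells these were Thy1 at 308 CPM in control column 5 (next 202 CPM) and at 61.9 CPM in E2 column 16 (next 32.3 CPM), Nrp1 at 78.7 CPM in control column 9 and Eng at 6.81 CPM in control column 6. In cluster 1 these were Kdr at 2.61 CPM in control column 1 (3 reads) and 1.65 CPM in E2 column 17 (1 read), Esam at 38.6 CPM in control column 6 (29 reads, of which 26 were in 1 cell) and 10.1 CPM in E2 column 20 (4 reads), Nrp1 at 150 CPM in E2 column 16 (69 reads) and Eng at 1.69 CPM in E2 column 19 (1 read). Sums of cluster 1 hold few cells, and their levels are skewed towards 0, which the criterion does not allow for.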

How the results depend on the processing

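In responsive cells the fall of Thy1 with E2 kept its call under all 7 alternatives (log2 fold change -2.96 to -2.77) and without any 1 of the 19 libraries. The number of called genes there was 141, and 234 with DESeq2, and 107 to 141 with each library left out. In cluster 1 it was 7, and 52 with DESeq2, 4 with library totals, 1 without a filter on genes and 0 after thinning (322 genes at an unadjusted p below 0.05), and 1 to 9 with each library left out. The interaction gave 21 calls, and 98 with DESeq2, 13 with limma-voom, 12 after thinning and 0 with the library as a block (892 at an unadjusted p below 0.05). Shares of cells gave 101 calls, and 208 without thinning. The sign of uncalled values turned for Kdr in the interaction with limma-voom (0.42), for Esam in the interaction with limma-voom (0.46), after thinning (0.18), with the block (0.08) and with k-means labels (0.50), for Thy1 in the interaction with limma-voom (1.40) and with k-means labels (0.57), for the Kdr share without thinning (-0.0812 points), for Kdr in responsive cells (-0.09 to 0.34 with each library left out, lowest without column 15) and for Nrp1 in cluster 1 (-0.84 to 0.94). Causes were not tested. Between clusters, library totals moved the median log2 difference of all genes from -0.06 to 0.06, and the genes past the threshold from 712 higher and 1115 lower to 951 and 903; Kdr, Esam and Thy1 stayed lower in cluster 1 throughout. No paired analysis was possible between conditions because control and E2 columns share no number. Depth limits Eng, and every member in E2 cells of cluster 1.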
